A study of Mus musculus with 868 samples.

Results

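The hepatic acute phase protein genes were taken as the rows of 10 named symbols, Hp, Orm1, Orm2, Fga, Fgb, Fgg, Hpx, Lbp, Itih3 and Itih4, out of 24421 gene symbols in the count table of each tissue. All 10 symbols were present in every table. The series profiled C57BL/6N mice by counting the 3′ ends of mRNA in 24 tissues. It holds 868 libraries in 18 treatment groups, of which 15 are drugs and 3 had no drug. A group has 2 libraries in a tissue, or 4 in the brain of Asenapine and the jejunum of Sofosbuvir. Its title gives the prediction of human clinical outcomes as the purpose. The labels give no sex, age or genotype beyond the strain and the name WT(No treated), and do not say whether replicate libraries are separate animals, so p values measure only the spread between these libraries.

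Treatments were compared only within library sets. These sets rest on the expression values and are not in the labels. Set A held WT(No treated) mice, called untreated here, FivePercentSucrose, and the drugs APAP, labelled with a time of 2 hours, and Sofosbuvir. Set B held Alendronate, Risedronate, Asenapine, Lurasidone and Olanzapine and had no group without a drug, so that each drug was compared with the mean of the other 4. Set C held a control of 0.5% CMC with 0.25% Tween80, called CMCTween here, and Aripiprazole, Cisplatin, Clozapine, Dox (2 mg/mL), EMPA (2 weeks), Lenalidomide, Repatha and Teriparatide. The 8 drugs of set C share the 2 CMCTween libraries of a tissue, and APAP and Sofosbuvir share the untreated and Sucrose libraries. The labels give no other dose, time or vehicle. Total counts per library ran from 451154 to 12811780 (median 877592), and the deepest library was 12811780 in set A, 1877620 in set B and 3685250 in set C. Levels are given as CPM, counts scaled to the total of the library. Differences are log2 changes with their standard error from edgeR's quasi-likelihood test, with p adjusted over all genes tested in the comparison by the Benjamini-Hochberg method, and "called" means an adjusted p under 0.05.

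The acute phase response is the change in the proteins that the liver secretes into blood after injury or infection. Interleukin 6 and related cytokines act on hepatocytes through the receptor subunit gp130 and the transcription factor STAT3, and interleukin 1 acts through NF-kB and C/EBP factors. Positive acute phase proteins rise and negative ones, such as transthyretin, fall. The 10 genes code for plasma proteins of several kinds. Hp (haptoglobin) binds free hemoglobin and Hpx (hemopexin) binds free heme. Fga, Fgb and Fgg code for the 3 chains of fibrinogen, the precursor of the clot. Orm1 and Orm2 code for alpha-1 acid glycoproteins, which bind lipids and drugs in plasma. Lbp hands bacterial lipopolysaccharide to CD14, and Itih3 and Itih4 belong to the inter-alpha-trypsin inhibitor heavy chain family, of which Itih3 is linked to hyaluronan in the matrix.

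Several of the genes are neighbours (mm10, GENCODE M21). Fgg (chr3:83007724-83015049, plus strand) lay 11026 bases from Fga (chr3:83026076-83033627, plus strand), which lay 6513 bases from Fgb (chr3:83040141-83049863, minus strand). Orm1 (chr4:63344560-63348163) and Orm2 (chr4:63362449-63365878) are neighbours on chromosome 4 with Orm3 between them, and Itih3 and Itih4 are 6218 bases apart on chromosome 14. Hp is at chr8:109575128-109579172, Hpx at chr7:105591613-105600137 and Lbp at chr2:158306493-158332852. The transcripts of Orm1 and Orm2 are identical at 91.0% of aligned bases and at 97.7% over the last 300 bases, the end that a 3′ library reads, so the split of counts between them is uncertain.

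The promoters of the fibrinogen genes are shown because these neighbours changed together in the results, and that of Hpx because it was the 1 member not called with Cisplatin in liver. Each sequence runs 5′ to 3′ on the gene's strand from 250 bases before to 50 bases after the RefSeq start (GRCm38.p6). Capitals mark matches, on either strand, to TTCNNNGAA (the motif of STAT factors), CTGGGAA (an interleukin 6 response element) or TTNNGNAA (C/EBP factors).
Fga, chr3:83025903-83026202, plus strand: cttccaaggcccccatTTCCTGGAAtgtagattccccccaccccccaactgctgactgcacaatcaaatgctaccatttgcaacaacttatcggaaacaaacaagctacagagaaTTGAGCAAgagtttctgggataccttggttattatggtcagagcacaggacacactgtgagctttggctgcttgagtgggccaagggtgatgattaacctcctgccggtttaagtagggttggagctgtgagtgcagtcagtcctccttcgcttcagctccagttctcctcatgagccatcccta
Fgb, chr3:83049814-83050113, minus strand: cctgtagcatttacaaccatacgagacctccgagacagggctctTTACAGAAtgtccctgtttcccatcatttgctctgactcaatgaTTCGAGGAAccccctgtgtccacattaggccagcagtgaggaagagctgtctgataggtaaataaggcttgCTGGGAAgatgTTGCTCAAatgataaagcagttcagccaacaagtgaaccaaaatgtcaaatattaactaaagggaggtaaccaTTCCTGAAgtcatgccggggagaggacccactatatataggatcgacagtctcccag
Fgg, chr3:83007474-83007773, plus strand: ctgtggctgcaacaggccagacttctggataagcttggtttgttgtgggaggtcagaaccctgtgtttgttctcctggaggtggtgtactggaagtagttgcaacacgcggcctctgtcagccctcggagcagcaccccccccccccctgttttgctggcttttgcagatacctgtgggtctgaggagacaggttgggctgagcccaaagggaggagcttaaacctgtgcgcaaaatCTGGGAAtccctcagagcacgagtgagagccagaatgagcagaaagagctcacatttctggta
Hpx, chr7:105600067-105600366, minus strand: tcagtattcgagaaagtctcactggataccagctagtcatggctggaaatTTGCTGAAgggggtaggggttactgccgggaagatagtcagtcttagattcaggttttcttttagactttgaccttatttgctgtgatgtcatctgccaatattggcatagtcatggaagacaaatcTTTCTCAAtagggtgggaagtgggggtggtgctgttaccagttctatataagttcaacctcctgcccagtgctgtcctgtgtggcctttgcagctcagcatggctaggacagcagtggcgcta
TTCNNNGAA was found at -234 in Fga and at -162 in Fgb, counted from the start site. CTGGGAA was found at -91 in Fgb and at -13 in Fgg. TTNNGNAA was found at -135 in Fga, at -206, -80 and -7 in Fgb, and at -200 and -73 in Hpx. Of the 7 members with a RefSeq promoter (those of Orm2, Itih3 and Itih4 besides the 4 shown), 3 held TTCNNNGAA, 2 held CTGGGAA, 4 held TTNNGNAA and 3 held TATAAA, the sequence of the TATA box. Of all 32544 promoters of the same length, 8.33%, 11%, 40.7% and 13.6% held these motifs, in the same order. The TATAAA matches were at -33 in Orm2, at 4 in Itih3, after the start site, and at -3 on the minus strand in Itih4. A match alone does not show a working TATA box. The members without an entry are Hp, Orm1 and Lbp.

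In untreated mice all 10 members were higher in liver than in the mean of the other 23 tissues. Of all 18298 genes tested, 25.4% were higher in liver in this comparison. Log2 differences between tissues use scaling factors beyond total counts, so they can differ from the ratios of the CPM given. Liver was higher than each of the 23 tissues alone for 8 members, and for Hp and Lbp higher than 22, with white adipose tissue (WAT) as the exception. The label of the liver libraries was checked on 10 hepatocyte markers, whose summed level ran from 46578 to 121388 CPM over the 36 liver libraries.

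Fibrinogen, hemopexin and Itih3 transcripts were high in liver and low in most other tissues. Fga was at 3502 and 3942 CPM in the untreated liver libraries and next highest in kidney, at 18.1 and 10.5 CPM. Fgb was at 5543 and 5509 CPM in liver, and no other tissue reached a mean of 20 CPM. Fgg was at 4033 and 3999 CPM in liver. Fgg had 1 further site, the parotid gland, with 116 and 73.5 CPM, and was at 10.6 and 8.68 CPM in kidney. Its parotid level was above its kidney level by 4.23 on the log2 scale. Hpx was at 1374 and 1450 CPM in liver and at 6.71 and 0 CPM in jejunum, the next tissue. Itih3 was at 411 and 397 CPM in liver and at 21.9 and 16.4 CPM in brain. In the jejunum library with Hpx at 6.71 CPM, Fga was at 9.46, Fgb at 13.7 and Alb (albumin) at 29.3 CPM, while all 4 were at 0 in the other jejunum library. The part of liver RNA in these low values was not tested.

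Hp and Lbp had a second high site in white fat. Hp was at 3568 and 2917 CPM in WAT and at 3053 and 3220 CPM in liver, so the ranges overlapped. Liver minus WAT was 0.57 ± 0.43 (adjusted p = 0.308) for Hp and 0.10 ± 0.16 (adjusted p = 0.689) for Lbp. Lbp was at 190 and 208 CPM in WAT and at 127 and 151 CPM in liver, and without scaling beyond total counts the Lbp difference turned to -0.52 ± 0.16 (adjusted p = 0.00642), higher in WAT. Hp followed in aorta (1530 and 1518 CPM), lung (1304 and 1011 CPM), bone marrow (918 and 823 CPM), skull (429 and 485 CPM), skin (436 and 363 CPM) and parotid gland (372 and 382 CPM). In this order liver was above aorta by 1.66 (adjusted p = 0.0024), or by 1.04 (adjusted p = 0.0472) without scaling beyond total counts. Bone marrow was above skull by 1.30 (adjusted p = 0.0201). The steps from aorta to lung (0.62, adjusted p = 0.270) and from lung to bone marrow (0.04, adjusted p = 1) were not called. Hp reached a mean of 20 CPM in 11 tissues, and Lbp in 11 as well. Lbp was at 89.1 and 81.3 CPM in lung, below liver by 1.55 on the log2 scale, or by 0.70 without scaling beyond total counts. It was at 87.3 and 75.9 CPM in bone marrow.

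Orm1 was liver-high with a second site in fat. It was at 1024 and 957 CPM in liver, 272 and 440 CPM in WAT, 162 and 160 CPM in skin and 98.4 and 60 CPM in aorta. Each of these steps was called, liver over WAT by 2.1, WAT over skin by 1.25 (adjusted p = 0.0015) and skin over aorta by 0.90 (adjusted p = 0.0181). Without scaling beyond total counts, liver over WAT was 1.48. Orm2 was low in every tissue and was at 10.1 and 8.26 CPM in liver and 1.87 and 2.78 CPM in WAT. Itih4 was at 746 and 772 CPM in liver, 45 and 42.3 CPM in lung, 37.8 and 20.8 CPM in aorta and 21.1 and 34.1 CPM in pancreas. Lung over aorta was 0.31 (adjusted p = 0.462).

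Among the tissues with high Hp, a marker gene of fat was high in WAT, aorta and skin, and those of neutrophils in bone marrow and skull. Liver, also high in Hp, had low levels of both. Over the 8 livers of set A the summed adipocyte markers were at 3.46 to 26.1 CPM and the neutrophil markers at 6.69 to 66.5 CPM. Values for lung and parotid gland are not given here. Adipoq, the adipocyte hormone adiponectin and 1 of 5 adipocyte markers, was at 3229 and 3303 CPM in WAT, 1341 and 1379 CPM in aorta and 198 and 215 CPM in skin. Over the libraries of each set, with the treated ones, Hp did not follow Adipoq alike in these tissues. The correlation within a set was 0.93 to 0.99 in skin, -0.19 to 0.81 in WAT and -0.33 to 0.31 in aorta. The summed level of 8 neutrophil markers was 130233 and 122928 CPM in bone marrow and 42340 and 48713 CPM in skull. Alb outside liver was between 0.0010% and 0.18% of its liver level in every tissue. In bulk tissue, more cells of a type and more RNA per cell cannot be told apart.

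**Figure D1:**
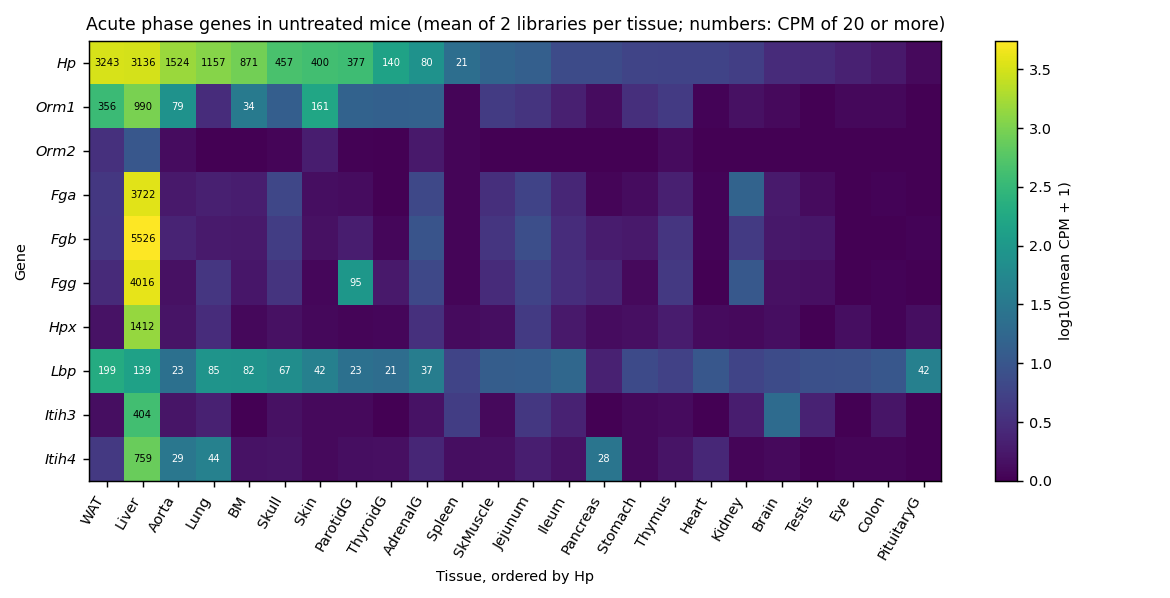
Levels of the 10 genes in the untreated libraries of 24 tissues, as CPM plus 1 on a log scale. Liver holds the highest values of 8 genes, and WAT lies level with liver for Hp (3568 and 2917 against 3053 and 3220 CPM) and above it for Lbp (190 and 208 against 127 and 151 CPM).

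Over 23 tissues without liver the members did not share 1 pattern. The median Pearson correlation of the 45 pairs of members, on means of log2(CPM + 1) of the untreated libraries, was 0.201. The genes most like Hp over these 23 tissue means were Lrg1 (r = 0.91), Vnn3 (r = 0.86) and Orm1 (r = 0.86). Those most like Orm1 were Cd209f (r = 0.88), Adipoq (r = 0.87) and Retn (r = 0.86), of which the last pair are adipocyte genes. Dnase1 (r = 0.87) was most like Fgg, Plod3 (r = 0.83) most like Lbp and Rbpjl (r = 0.72) most like Itih4. The tissue means share the depth and composition of their libraries, and these values are descriptions without a test.

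Cisplatin, a platinum drug that crosslinks DNA, gave the largest set of calls in liver. It raised 9 of the 10 members, against 5.39% of all 8242 genes tested in this comparison, and lowered none, against 4.57%. The median log2 change was 1.23 for the members and -0.01 for all genes. Of the hemoglobin and heme binders, Hp was called and Hpx was not. Hp was at 501 and 807 CPM in the CMCTween livers and at 5146 and 2657 CPM in the Cisplatin livers, a rise of 2.67 ± 0.34 (adjusted p = 2.28e-05). Both Cisplatin libraries lay above the other 16 libraries of set C. Hpx was at 1632 and 1740 CPM in the controls and at 3381 and 1688 CPM with Cisplatin. The Hpx groups overlapped, and its difference of 0.68 ± 0.31 was not called (adjusted p = 0.194).

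The 3 fibrinogen chains rose by nearly the same amount. Fga was at 2298 and 2424 CPM in the controls and at 7047 and 2832 CPM with Cisplatin (1.17 ± 0.30, adjusted p = 0.0156). Fgb was at 6405 and 6512 CPM and at 18701 and 8040 CPM (1.15 ± 0.26, adjusted p = 0.0069). Fgg was at 1934 and 2109 CPM and at 5876 and 2567 CPM (1.16 ± 0.27, adjusted p = 0.0076). In each of the 3 the Cisplatin libraries lay above both controls, replicate 1 far above and replicate 3 just above.

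Itih3 showed the smallest adjusted p. It was at 301 and 370 CPM in the controls and at 1577 and 938 CPM with Cisplatin, a rise of 2.0 ± 0.18 (adjusted p = 6.63e-10). Itih4 was at 390 and 594 CPM and at 1254 and 820 CPM (1.16 ± 0.19, adjusted p = 0.000118). Lbp was at 77.1 and 77.6 CPM and at 223 and 137 CPM (1.30 ± 0.23, adjusted p = 8.20e-05). In these 3 genes the groups did not overlap, and both Cisplatin libraries were also above every other library of the set.

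Of the alpha-1 acid glycoprotein genes, Orm1 was at 133 and 184 CPM in the controls and at 633 and 239 CPM with Cisplatin (1.55 ± 0.38, adjusted p = 0.0126). Orm2 was at 0 and 3.64 CPM and at 46.6 and 10.7 CPM, which rests on 42 counts against 3. The ratio of these counts over library sizes was 15 (95% interval 4.79 to 75.6, counting error only). Both genes lay above the controls in both Cisplatin libraries.

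The size of the Cisplatin values rested in part on 1 library. For the 10 members, replicate 1 was 1.53 (Itih4) to 4.34 (Orm2) times replicate 3, while Alb was 1.24 times as high. Saa1 (serum amyloid A) differed more, at 2916 CPM in replicate 1 and 265 CPM in replicate 3. Leaving out single Cisplatin or CMCTween libraries changed which members were called, and lowered the share of all genes called as well. Without Cisplatin replicate 1 the calls of Orm1, Orm2, Fga, Fgb and Fgg were lost. Over all alternatives that were run, which include these refits, the log2 change ran from 0.32 to 1.70 for Fga. It ran from 0.64 to 2.12 for Orm1 and from 2.07 to 3.10 for Hp. Hp, Lbp, Itih3 and Itih4 kept their call in each of the 24 alternatives that were run.

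**Figure D2:**
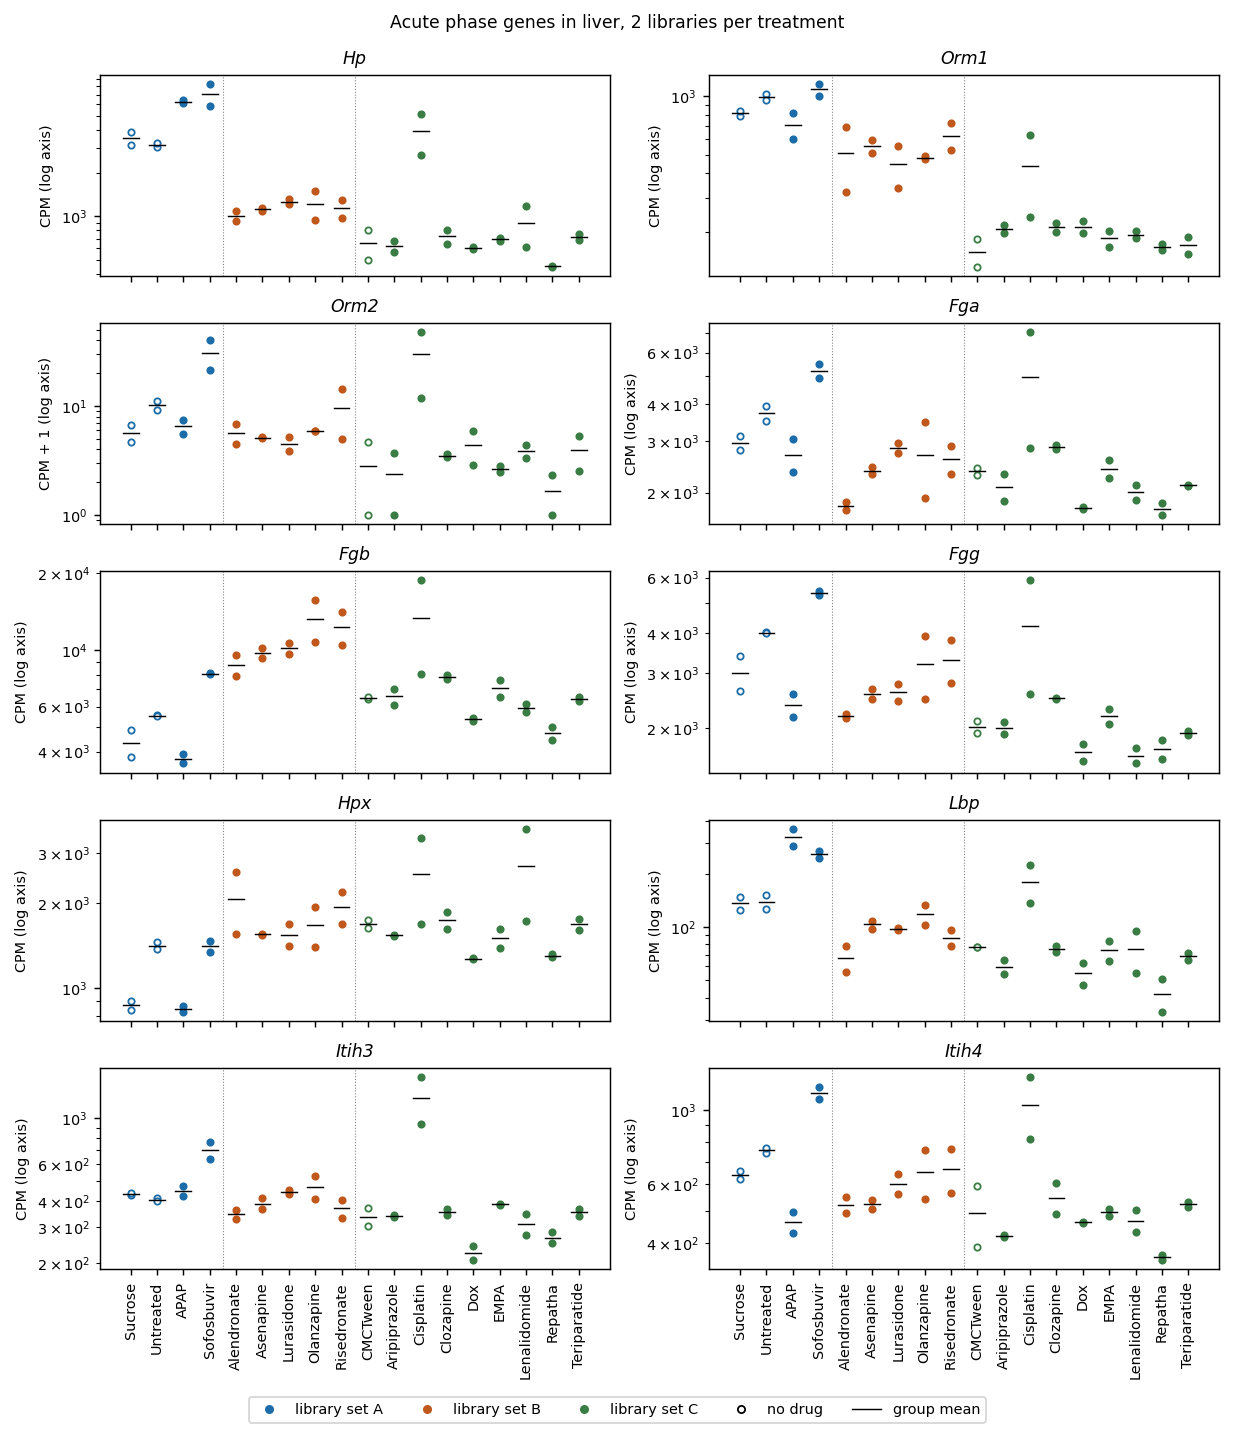
Levels of the 10 genes in each of the 36 liver libraries, on a log scale, by treatment and library set. Open circles are the groups without a drug and bars are group means. The Cisplatin libraries lie above the rest of set C for Hp (5146 and 2657 CPM) and overlap it for Fga and Hpx. The general level of Hp differs between the sets, so that only values within a set are compared.

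Other genes of the acute phase response moved with the members in the Cisplatin livers. Of 23 other positive acute phase genes, 20 passed the filter on low counts, 13 rose and none fell, with a median change of 1.73. Lcn2 (lipocalin 2, which binds iron-carrying siderophores) rose by 7.54, Serpina3n, a protease inhibitor, by 4.32, Saa1 by 4.40 and Fgl1, a fibrinogen-like liver protein, by 3.78. Hamp (0.14, adjusted p = 0.883) and Saa4 (-0.12, adjusted p = 0.919) were not called. Of 10 negative acute phase genes, 4 rose (Ahsg, Alb, Apoa1 and Gc) and 2 fell, Ttr (transthyretin) by 0.47 and Serpina6, the corticosteroid-binding globulin, from a mean of 84.6 CPM to 1.41 CPM. In the signalling list of 16 genes, Stat3 and Nfkbiz rose and Cebpa fell. Stat3 was at 370 and 255 CPM with Cisplatin and at no more than 173 CPM in the controls. Lifr was the 1 receptor gene of 6 tested that was called, and it fell. Of 10 clotting genes, F2 (prothrombin), F5, F12 and Plg (plasminogen) rose, by 0.35 to 0.55. Il6 itself was at 0 in the livers of the controls and of Cisplatin.

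Marker genes of cell types were checked in the same livers. The summed hepatocyte markers were at 94621 and 96397 CPM in the controls and 121388 and 98289 CPM with Cisplatin, with 5 of 10 called up and 2 down. The summed neutrophil markers were at 37.4 and 3.64 CPM and at 32.5 and 89.5 CPM, and the macrophage gene Csf1r fell from a mean of 58.0 to 22.6 CPM. The part of these markers in the members' rise was not tested.

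Sofosbuvir, an inhibitor of the hepatitis C virus polymerase, raised 5 of the 10 members in liver, against 0.995% of all genes. None fell, and the median change was 0.74 for the members and -0.03 for all genes. Hp was at 3125 and 3841 CPM with Sucrose, 3053 and 3220 CPM in untreated mice and 5835 and 8338 CPM with Sofosbuvir (1.14 ± 0.27, adjusted p = 0.0358). The Sofosbuvir libraries lay above all 4 controls. Orm2 was at 3.65 and 5.67 CPM with Sucrose, 10.1 and 8.26 CPM in untreated mice and 20.2 and 39.3 CPM with Sofosbuvir (2.16 ± 0.43, adjusted p = 0.0032). Lbp was at 125 and 147 CPM, 127 and 151 CPM, and 247 and 270 CPM in the same order (0.94 ± 0.16, adjusted p = 0.000765). For Lbp, as for Orm2, the groups did not overlap.

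Both heavy chain genes rose with Sofosbuvir. Itih3 was at 427 and 438 CPM with Sucrose, 411 and 397 CPM in untreated mice and 636 and 766 CPM with Sofosbuvir (0.78 ± 0.14, adjusted p = 0.0020). Itih4 was at 657 and 620 CPM, 746 and 772 CPM, and 1076 and 1171 CPM (0.73 ± 0.16, adjusted p = 0.0136). The fibrinogen genes had values of 0.69 for Fga (adjusted p = 0.221), 0.76 for Fgb (adjusted p = 0.110) and 0.67 for Fgg (adjusted p = 0.175), which were not called, although both Sofosbuvir libraries lay above all 4 controls in each of the 3. Hpx (0.38) and Orm1 (0.31) were not called. Without Sofosbuvir replicate 2 no member was called, when 0.218% of all genes were. Without Sofosbuvir replicate 1, either Sucrose library or untreated replicate 2, 3 were called (Orm2, Lbp and Itih3). In a fit of the libraries of set A alone, 9 members were called, and the share of all genes called in that fit is not given here.

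Serum amyloid and metallothionein transcripts rose in the same livers. Saa1 was at 1414 and 2659 CPM with Sofosbuvir and between 60.8 and 108 CPM in the 4 controls, and 7 of 20 tested other positive acute phase genes rose (Cp, Mt1, Mt2, Saa1, Saa2, Serpina10 and Serpina3m; median 1.17). Stat3 (261 and 266 CPM against 126 to 157 CPM), Bcl3, an NF-kB cofactor, and Il1r1, an interleukin 1 receptor, also rose. None of the 10 negative acute phase genes was called.

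APAP (acetaminophen) at 2 hours raised Hp and Lbp and lowered Itih4 in liver, where 7.74% of all genes were called up and 8.75% down. Lbp was at 360 and 287 CPM with APAP against 125 to 151 CPM in the 4 controls (1.26 ± 0.16, adjusted p = 2.12e-07). Hp was at 6091 and 6428 CPM against 3053 to 3841 CPM (0.96 ± 0.27, adjusted p = 0.0180). Itih4 was at 496 and 430 CPM against 620 to 772 CPM (-0.55 ± 0.17, adjusted p = 0.0225). In these 3 genes the APAP libraries lay outside the range of the controls. The other 7 members were not called, with Fgg at 2567 and 2167 CPM against 2623 to 4033 CPM (-0.52, adjusted p = 0.152), and the median member changed by -0.28. Against Sucrose alone, or without APAP replicate 1, APAP replicate 2 or Sucrose replicate 1, Lbp was the only member called. Of the other positive acute phase genes, Cp, Mt1 and Mt2 rose and Cfb, Hamp and Saa4 fell. The clotting genes F7, F10, Proc and Serpinf2 fell, as did Nr3c1, the glucocorticoid receptor gene, of the 16 signalling genes. Nfkbiz and the transcription factor genes Cebpb, Cebpd and Hnf4a rose. Of 10 negative acute phase genes, Apoa1 and Rbp4 rose and Apom, Serpina6 and Ttr fell. The summed hepatocyte markers gave no common direction, with 1 of 10 up and 3 down.

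**Figure D3:**
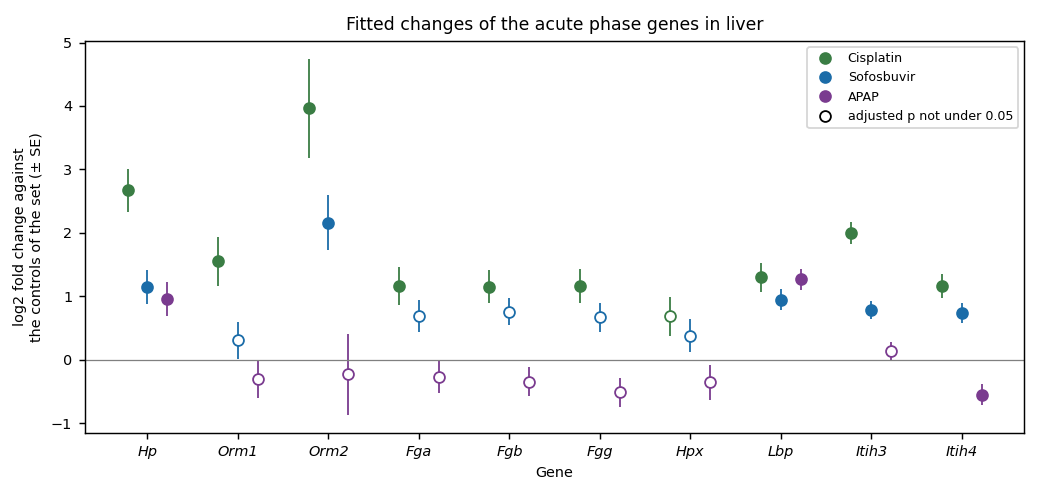
Log2 change of each of the 10 genes in liver with a drug, within its set, with filled marks for adjusted p under 0.05 in edgeR's test. Cisplatin has 9 filled marks (Hp at 2.67), Sofosbuvir 5 and APAP 3, and no member was called with the other 12 drugs.

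For the other 12 drugs no member was called in liver by edgeR, over 120 tests. The share of all genes called was small in most of these comparisons. In set C it was 0.0971% for Aripiprazole, 0.121% for Clozapine, 0.558% for Dox, 0.0121% for EMPA, 0.0243% for Lenalidomide and for Repatha, and 0.0364% for Teriparatide. In set B it was 0.886% for Alendronate, 0.182% for Risedronate, 4.43% for Asenapine, 0.0849% for Lurasidone and 2.83% for Olanzapine. At an unadjusted p under 0.05 there were 7 of 120 tests, and the smallest adjusted p was 0.121. The largest change in either direction was 1.18 on the log2 scale. Sucrose against untreated also had no call, with 1 member (Hpx, -0.80) at an unadjusted p under 0.05 and an adjusted p of 0.0989, while 12.6% of all genes were called. DESeq2 called none for set B or for Sucrose. Replicate 4 of the Lenalidomide livers had Hp at 1177 CPM and Hpx at 3647 CPM against 610 and 1729 CPM in replicate 3. Its summed lung epithelium markers were at 203 CPM and at 0 in replicate 3. The highest sum of these markers in set C, 270 CPM, was in Aripiprazole replicate 4, with Hp at 567.5 CPM and Hpx at 1527 CPM.

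Over the 18 liver treatment means, centred within their set, the members varied together. The median correlation of the 45 pairs was 0.777 (0.327 to 0.971), and 19 pairs were above 0.8. Fgb with Fgg (r = 0.97) and Fga with Fgb (r = 0.95) were high. With Cisplatin and Sofosbuvir dropped after this centring the median was 0.384 (-0.213 to 0.929, 16 means). The centring still holds both drugs, so this value is not free of them. The genes most like Itih3 were Lcn2 (r = 0.95), Serpina3n (r = 0.94) and Hp (r = 0.92). Those most like Hp were Cyp3a13 (r = 0.94), Serpina3n (r = 0.93) and Cp (r = 0.93), and the gene most like Hpx was Tmem176b (r = 0.87). Points of a set share its centring, and no test was made.

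Outside liver the members were called in 47 of 1140 tests of a member, drug and tissue that passed the filter on low counts, 32 up and 15 down. This is 4.12%, against 2.86% of all genes in the same comparisons. Orm2 passed the filter in no other tissue, Hpx and Itih3 in 1 each, Fga and Itih4 in 4, Fgg in 6, Orm1 in 8, Fgb in 15, Lbp in 18 and Hp in 19. Cisplatin gave 14 of the 32 calls up, in 76 tests (18.4%, against 5.77% of all genes called up), and 1 call down (5.63% of all genes). A member may have passed the filter in a tissue only through the libraries in which it was high. Of the 303 counts of Fgb in kidney, for example, 129 were in the Cisplatin libraries. The number of tests is therefore not independent of the calls up. Hp was higher with Cisplatin in 17 of 19 tissues tested and called up in 5, and Lbp was higher in 13 of 18 and called up in 5. The labels do not say whether libraries of different tissues come from the same animals, so the tissues may not be independent. The share of all genes higher in as many tissues is not given here. Calls up came from both genes in ileum, parotid gland and skull.

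Kidney was the tissue with the most calls for any drug outside liver. Cisplatin raised 3 of the 4 members tested there, the fibrinogen genes, when 11.3% of all genes were called up. Fga was at 3.33 and 5.80 CPM in the CMCTween kidneys and at 505 and 226 CPM with Cisplatin (6.22 ± 0.38, adjusted p = 2.25e-18). Fgg was at 3.33 and 5.80 CPM and at 552 and 273 CPM (6.39 ± 0.40, adjusted p = 6.46e-17). Fgb was at 1.11 and 0 CPM and at 95.5 and 43.4 CPM, or 129 counts against 1, a ratio of 128 (95% interval 22.6 to 5099). Both Cisplatin kidneys lay above the other 34 for each of the 3. Fga was at 1.43 to 21.5 CPM and Fgg at 1.49 to 17.8 CPM in the 32 kidneys outside Cisplatin and APAP. The gap was smallest for Fgb, which reached 20.2 CPM in the other 34 kidneys against 43.4 CPM in Cisplatin replicate 3. The fourth gene tested, Lbp, was at 6.65 and 2.32 CPM and at 11.1 and 16.6 CPM and was not called.

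Liver RNA was checked beside these kidney values. Alb was at 5.54 and 9.27 CPM in the controls and at 3.02 CPM in Cisplatin replicate 1, the kidney with Fga at 505 CPM. It was at 126 CPM in replicate 3, with Fga at 226 CPM. Of 8 hepatocyte markers tested 2 were called up (Apoa2 and Apoc3) and 1 down (Ttr), with a median change of 3.10. The summed hepatocyte markers were at 197 and 264 CPM in the controls and at 145 and 471 CPM with Cisplatin. This sum includes Ttr, which in untreated kidney was at 3.0% of its liver level, against a median of 0.031% for the hepatocyte markers. The part of liver RNA in the kidney values was not tested. Havcr1, a marker of injured kidney tubule known as KIM-1, was at 573 and 546 CPM with Cisplatin and at no more than 4.43 CPM in the other 34 kidneys. Lcn2 was at 372 and 132 CPM against 2.22 and 0 CPM.

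The rise was larger in kidney than in liver for all 3 chains, on the log2 scale. Kidney minus liver was 5.06 for Fga (adjusted p = 0.000152), 5.38 for Fgb (adjusted p = 0.0221) and 5.24 for Fgg (adjusted p = 8.49e-05), in a fit of both tissues in which 6.79% of all genes differed. The kidney levels still lay under those of liver, at 505 CPM or less for Fga against at least 1676 CPM in every liver of set C. In kidney 9 of 10 tested other positive acute phase genes rose with Cisplatin (median 3.70), and of the signalling list Stat3, Socs3, Cebpd, Nfkbia, Nfkbiz and Rela rose while Hnf4a fell. The receptor genes Il6st, which codes for gp130, Osmr and Tnfrsf1a rose.

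APAP at 2 hours raised 2 fibrinogen genes in kidney, where 6.07% of all genes were called up. Fga was at 41.4 and 54.3 CPM with APAP, 18.1 and 10.5 CPM in untreated mice and 7.92 and 7.32 CPM with Sucrose (2.15 ± 0.30, adjusted p = 3.48e-07). Fgg was at 25.4 and 19.4 CPM, 10.6 and 8.68 CPM, and 4.95 and 6.41 CPM (1.54 ± 0.39, adjusted p = 0.0040). Neither gene's APAP range overlapped the controls, and Alb was at 0 and 1.94 CPM with APAP. Fgb was at 2.83 and 2.91 CPM with APAP, within the control range of 1.98 to 4.58 CPM. Kidney minus liver was 2.47 for Fga (adjusted p = 4.76e-08) and 2.11 for Fgg (adjusted p = 2.24e-06), with 4.72% of all genes called. Without APAP replicate 1 only Fga was called. Of the 16 signalling genes, 7 rose in kidney with APAP, among them Stat3 and Socs3, and Nr3c1 fell. The receptor gene Il6st fell.

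**Figure D4:**
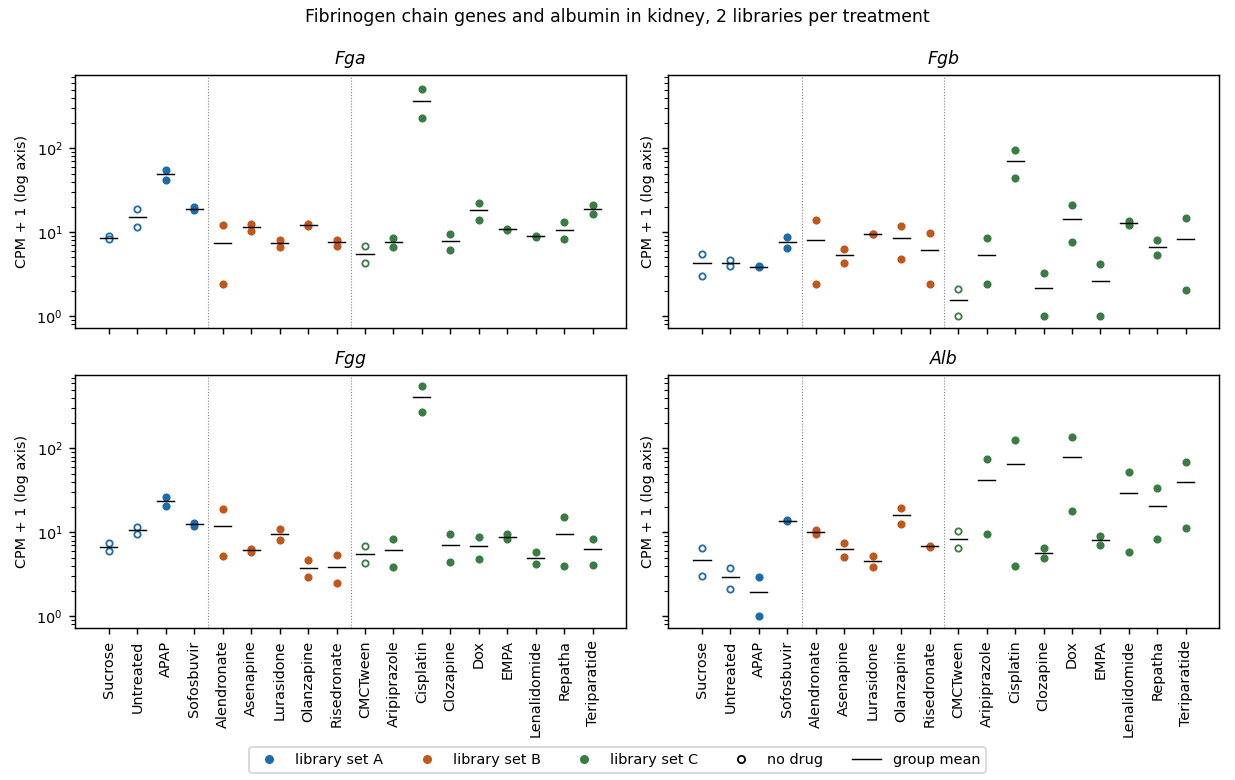
Fga, Fgb, Fgg and Alb in each kidney library, as CPM plus 1 on a log scale, by treatment; open circles are the groups without a drug. Both Cisplatin kidneys stand above all others for the fibrinogen genes (Fga 505 and 226 CPM), APAP is raised for Fga and Fgg (Fga 41.4 and 54.3 CPM), and Alb is at 3.02 and 126 CPM in the Cisplatin kidneys.

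In ileum 2 members passed the filter on low counts, and both rose with Cisplatin, when 14.7% of all genes did. Hp had 101 counts over the 36 ileum libraries and was at 0 in 16. It may have passed only through the Cisplatin libraries, so the number tested is not independent of the rise. Hp was at 2.33 and 0 CPM in the controls and at 23.6 and 18.5 CPM with Cisplatin, or 26 counts against 2, a ratio of 20.7 (95% interval 5.19 to 180). Lbp was at 1.16 and 3.51 CPM and at 29.0 and 22.8 CPM (3.24 ± 0.61, adjusted p = 4.90e-05). Neither gene's groups overlapped. Without CMCTween replicate 4 only Lbp was called. Of the 16 signalling genes, 8 rose, among them Stat3 and Socs3, and Hnf4a and Nr3c1 fell, and 5 of 6 receptor genes tested rose. All 11 of the other positive acute phase genes tested rose, among them Saa3 (593 and 604 CPM against 4.65 and 0 CPM) and Serpina3n (408 and 435 CPM against 3.49 and 6.14 CPM). The summed fibroblast markers were at 1142 and 1392 CPM in the controls and at 4072 and 3808 CPM with Cisplatin, and the summed macrophage markers at 129 and 202 CPM and at 426 and 422 CPM. Alb was at 1.16 and 4.39 CPM and at 34.5 and 18.5 CPM. The part of these cells in the rise was not tested. No member's change was called as different between ileum and liver, where 7.86% of all genes were, with Lbp at 1.93 (adjusted p = 0.0599). The Lbp difference was called without scaling beyond total counts (2.09, adjusted p = 0.0459) and with a replicate block (2.0, adjusted p = 0.0421).

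In the parotid gland 2 of 5 members tested rose with Cisplatin, when 3.04% of all genes did. Hp was at 46.9 and 39.6 CPM in the controls and at 165 and 119 CPM with Cisplatin (1.36 ± 0.24, adjusted p = 8.29e-05). Lbp was at 11.5 and 10.4 CPM and at 62.1 and 49.8 CPM (2.0 ± 0.35, adjusted p = 4.68e-05). In skull 2 of 5 rose, when 3.94% of all genes did, with Hp at 90.8 and 99.5 CPM in the controls and at 324 and 328 CPM with Cisplatin (1.78 ± 0.18). Lbp in skull was at 22.4 and 28.4 CPM and at 50.2 and 49.5 CPM (0.98 ± 0.30, adjusted p = 0.0251). No groups overlapped in these 4 pairs. In skull the summed neutrophil markers were at 27023 and 26603 CPM in the controls and at 39860 and 47070 CPM with Cisplatin, and Adipoq at 26.0 and 30.8 CPM and at 89.1 and 78.5 CPM. Their part in the rise was not tested. The Lbp call in skull was lost without any 1 of the 4 libraries. Hp was then the only member called, except without Cisplatin replicate 3, where Hp and Fgb were.

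In skin, markers of fat and of other cell types changed in the comparisons in which Hp did. Dox lowered Hp and Lbp, 2 of 6 tested, when 6.19% of all genes fell. Hp was at 133 and 242 CPM in the controls and at 9.59 and 3.94 CPM with Dox (-4.73 ± 0.77, adjusted p = 0.000886). Lbp was at 15.5 and 20.3 CPM and at 5.33 and 2.62 CPM (-2.11 ± 0.48, adjusted p = 0.0038). All 5 adipocyte markers, all 4 fibroblast markers and 2 of 3 macrophage markers tested fell as well, with Adipoq at 121 and 360 CPM in the controls and at 10.7 and 9.19 CPM with Dox. Without Dox replicate 4 only Hp was called.

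Among the drugs of set B, Lurasidone skin had Hp at 230 and 225 CPM and Olanzapine skin at 178 and 151 CPM, while the 6 libraries of the other 3 drugs were at 3.13 to 61.8 CPM. Hp was above the mean of the other drugs by 2.74 ± 0.43 with Lurasidone (adjusted p = 0.000524) and by 2.21 ± 0.45 with Olanzapine (adjusted p = 0.0040). The share of all genes called up was 7.92% and 6.95%. Lbp rose with Lurasidone (27.5 and 18 CPM, 1.25 ± 0.32, adjusted p = 0.0085), and Orm1 fell with Olanzapine (36 and 58.2 CPM, -1.08 ± 0.26, adjusted p = 0.0071, with 3.42% of all genes called down). The 5 adipocyte markers were called up in both, with Adipoq at 312 and 258 CPM with Lurasidone and 196 and 243 CPM with Olanzapine against 12.5 to 67.7 CPM in the other 3 drugs. Fibroblast markers rose too, 3 of 4 with Lurasidone and 4 of 4 with Olanzapine, and all 3 macrophage markers tested rose with both drugs. The part of these cells in the skin values was not tested. Without Lurasidone replicate 1 only Hp was called there, and without Olanzapine replicate 1 neither member was.

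In lung Aripiprazole raised 2 of 4 members tested, when 6.81% of all genes rose. Hp was at 268 and 211 CPM in the controls and at 375 and 322 CPM with the drug (0.44 ± 0.15, adjusted p = 0.0402). Itih4 was at 18.1 and 8 CPM and at 39.4 and 31.1 CPM (1.34 ± 0.37, adjusted p = 0.0103). The groups did not overlap in either gene, but without Aripiprazole replicate 2 or CMCTween replicate 4 neither was called. In spleen Sofosbuvir raised Hp, 1 of 2 tested, when 0.383% of all genes rose. Hp was at 21.3 and 21.0 CPM in untreated spleens, 17.4 and 13.4 CPM with Sucrose and 71.2 and 75.0 CPM with Sofosbuvir (2.0 ± 0.26, adjusted p = 9.08e-08). The summed neutrophil markers were at 307 to 616 CPM in the 4 controls and at 1784 and 1710 CPM with Sofosbuvir, and 4 of 7 tested were called up. Their part in the Hp value was not tested.

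The following pairs were chosen after their values were seen. In WAT Sofosbuvir raised Hp, when 3.13% of all genes rose, from 3568 and 2917 CPM in untreated mice and 3667 and 3914 CPM with Sucrose to 5768 and 9371 CPM (1.11 ± 0.30, adjusted p = 0.0342). Adipoq was at 2909 and 3165 CPM in those libraries and at 3229 to 3950 CPM in the controls. Hp rose with Sofosbuvir in skeletal muscle too, at 50.6 and 65.0 CPM against 11.8 to 21.1 CPM (1.58 ± 0.36, adjusted p = 0.0418, with 0.175% of all genes called up). In WAT Cisplatin lowered Orm1 from 45.1 and 68.6 CPM to 3.39 and 9.93 CPM (-3.25 ± 0.84, adjusted p = 0.0189, with 3.93% of all genes called down), while Hp was at 995 and 966 CPM in the controls and at 2156 and 1967 CPM with Cisplatin and was not called (adjusted p = 0.0759).

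The next 4 Cisplatin calls were chosen in the same way. In pancreas Itih4 was at 0 and 1.66 CPM in the CMCTween libraries and at 22.7 and 25.1 CPM with Cisplatin, or 36 counts against 1 (ratio 31.3, 95% interval 5.26 to 1268, with 2.19% of all genes called up). It was at 21.1 and 34.1 CPM in untreated pancreas and at 0.954 and 2.83 CPM with Sucrose, so the groups without a drug differed among themselves. In thymus Lbp was at 1.61 and 0 CPM in the controls and at 22.2 and 31.9 CPM with Cisplatin, or 57 counts against 2 (ratio 27.7, with 22.8% of all genes called up). In bone marrow Hp was at 214 and 208 CPM in the controls and at 508 and 543 CPM with Cisplatin (1.27 ± 0.17, with 7.83% of all genes called up). The summed neutrophil markers there were at 79087 and 71012 CPM and at 87153 and 107058 CPM. In spleen Hp was at 2.07 and 2.61 CPM and at 45.3 and 17.5 CPM with Cisplatin (3.72 ± 0.56, with 2.53% of all genes called up), and the summed neutrophil markers at 173 and 114 CPM and at 1606 and 975 CPM. No groups overlapped in these 4 pairs. The part of neutrophils in the Hp values was not tested.

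Fibrinogen transcripts came with Alb in some tissues. In the adrenal glands of Clozapine, Fgb was at 175 and 26.5 CPM and Alb at 624 and 122 CPM, and in the CMCTween adrenal glands Fgb was at 0 in both and Alb at 0.989 and 1.16 CPM. In skin with Sucrose, Fga was at 17 and 9.84 CPM and Alb at 26.8 and 25.9 CPM, while untreated skin had Fga at 0.156 and 0.604 CPM and Alb at 1.64 and 1.21 CPM. In the same Sucrose skin Hp was at 131 and 68.9 CPM, below the 436 and 363 CPM of untreated skin (-2.07 ± 0.51, adjusted p = 0.0127, with 8.26% of all genes called down). The part of liver RNA in the fibrinogen values was not tested.

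Fgg in the parotid gland depended on the treatment group. It was at 0 in both Dox libraries and at 57.4 and 43.4 CPM in the CMCTween libraries, at least 35.1-fold lower with a floor of 3 counts over the group (adjusted p = 0.0039, with 1.42% of all genes called down). It was at 1.84 and 0 CPM with Asenapine and at 0.828 and 0 CPM with Sofosbuvir, which rest on 2 and 1 counts. Both were called down (adjusted p = 0.000459 and 0.0215, with 3.91% and 0.776% of all genes). With Sucrose it was at 9.52 and 11.4 CPM, below untreated glands (adjusted p = 0.000451, with 8.62% of all genes called down). The 28 libraries of the other groups held 19.8 to 118 CPM (median 55.3), among them 116 and 73.5 CPM in untreated mice and 116 and 104 CPM with Cisplatin. Fga was at no more than 6.35 CPM in all 36 parotid libraries. Esp18 and Obp1a, genes of secreted gland proteins chosen after their values were seen, were at 452 to 1801 CPM and 8005 to 40561 CPM in the same 28 libraries. In the 8 libraries of Dox, Asenapine, Sofosbuvir and Sucrose, Esp18 was at 0 to 157 CPM and Obp1a at 0 to 1839 CPM. The saliva genes Bpifa2 (79653 to 304080 CPM) and Amy1 (18266 to 81061 CPM) were high in all 36. Their part in the Fgg difference was not tested.

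**Figure D5:**
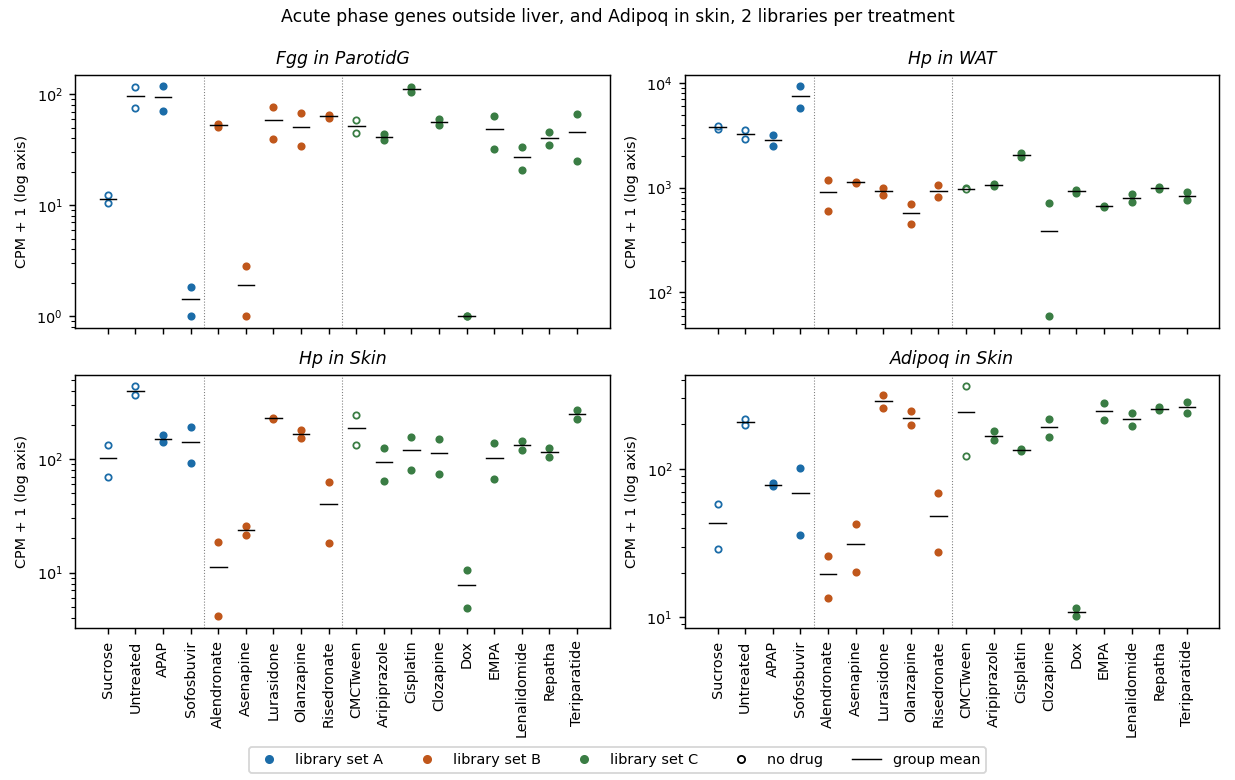
Fgg in parotid gland, Hp in WAT, and Hp and Adipoq in skin, as CPM plus 1 on a log scale, with 1 point per library; open circles are the groups without a drug. Parotid Fgg is near 0 with Dox, Asenapine and Sofosbuvir, WAT Hp is highest with Sofosbuvir (9371 CPM), and skin Hp is low in the groups where Adipoq is low.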

How the data were processed

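The deposited values are raw gene counts made by the authors, 1 table per tissue. Per the submitters' processing notes, bcl2fastq 2.17, TopHat2 2.1.1 and HTSeq 0.9.1 were used with mm10. The annotation and counting settings are not given in the sources used here. Libraries were QuantSeq 3′ mRNA, per the labels' protocols, so 1 transcript end is counted and levels do not scale with length.

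CPM were counts over column sums. Each tissue was fitted with edgeR 4.0.16 (R 4.3.3) in 1 model of 18 treatment groups, with filterByExpr at a minimum count of 10, TMM scaling and the quasi-likelihood F test. The standard error is the size of the change over the square root of F. APAP and Sofosbuvir were compared with the mean of untreated and Sucrose, set B drugs with the mean of the other 4, and set C drugs with CMCTween. Untreated tissues were fitted together. Kidney and ileum were compared with liver in joint fits of the set.

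The members, lists, sets and tests were chosen with earlier results of these data known. All members were named in liver. Outside liver, those at 20 CPM in an untreated tissue were named, and those called in the 10 drug and tissue pairs with most calls. Of the other lists, genes could be named if called in comparisons with at least 2 members called, and the rest are given as counts or left out. Of the signalling list, 1 gene is not reported here. Likeness used a pseudocount of 2 (liver) or 1 (tissues). No 2 libraries of a tissue held identical member values. Intervals are 95% conditional binomial and, like the floor of 3 counts, cover counting error only. Sequences are from RefSeq (GRCm38.p6). Same-numbered libraries were checked for pairing: over 17 pairs of liver groups their deviations correlated at -0.0322 to 0.225 (median 0.0119), with 4 above 0.1, so the numbers were not used to pair samples. Alternatives were other scaling, filters, references, DESeq2 1.42.0, a replicate block and leaving out each library.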

Additional observations from a re-analysis of the deposited data

Results flagged for a closer look

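The brain of Asenapine and the jejunum of Sofosbuvir have 4 libraries each, and 9 checks of the members were made over these groups. In 5 of them, all in Asenapine brain, the highest library stood apart from the other 3 by Dixon's criterion. Replicate 4 was the highest for Hp (2.12 CPM), Fgg (2.12 CPM) and Lbp (7.41 CPM), and replicate 3 for Fgb (2.43 CPM) and Itih4 (2.43 CPM). In each case the other libraries were at 0 for Hp, Fgb, Fgg and Itih4 and at 3.65, 3.78 and 4.03 CPM for Lbp. With the other libraries at 0 any count is flagged, so the usual chance rate of about 1 in 20 does not apply to Hp, Fgb, Fgg and Itih4. A value of 2.43 CPM is a few counts at these depths.

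The change in kidney differed from that in liver for the fibrinogen genes. With Cisplatin the log2 change in kidney minus that in liver was 5.06 for Fga, 5.38 for Fgb and 5.24 for Fgg. With APAP it was 2.47 for Fga and 2.11 for Fgg. The adjusted p values from edgeR stand beside these values in the account of the kidney.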

How the results depend on the processing

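Over single genes, 662 of 737 values under an alternative kept direction and call, 60 lost the call, 12 gained it and 3 turned sign. These 3 were uncalled in the comparison as reported: Orm2 (0.31) and Hpx (0.047) with APAP against Sucrose alone, and Hpx with Sofosbuvir against untreated alone (-0.022). All 10 members stayed higher in untreated liver in each alternative run. With Cisplatin in liver, Hp, Lbp, Itih3 and Itih4 kept the call in all 24 alternatives.

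Counts of called members moved as follows, and the cause was not tested. The share of all genes called can move with the setting too and is not given beside these counts. The 8 calls of set A in liver became 5 against Sucrose alone and 15 with the set fitted alone, the 3 of APAP 1 and 6, and the 5 of Sofosbuvir 9 with the set alone. With set C fitted alone the 9 calls of Cisplatin in liver became 7, without Orm2 and Fga. Sucrose against untreated went from 0 to 5 with the set alone, and to 1 without a filter on low counts, as did set B. Without a filter the 47 calls outside liver became 109, Skull with Cisplatin went from 2 to 4, Lung with Aripiprazole from 2 to 1 and Spleen with Sofosbuvir from 1 to 3. DESeq2 gave 1 in Skull and 0 in Lung, and no adjusted p for Hp in Ileum with Cisplatin, in Spleen with Sofosbuvir or for Orm2 in liver. Parotid gland with Cisplatin went from 2 to 4 against all other groups of its set. The median correlation over tissues of 0.201 became 0.0985 with a pseudocount of 10. With the replicate block, Lung with Aripiprazole had 1, Cisplatin in liver 7, Sofosbuvir in liver 4, Sucrose 0, the tissues outside liver 56 and the kidney, ileum and liver differences 7 against 5, the added being Lbp in ileum (adjusted p = 0.0421) and Hp in kidney with APAP (0.0484).

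Leaving out 1 library at a time gave 3 to 7 calls for set A in liver, 0 to 0 for set B, 4 to 10 for set C and for Cisplatin, 0 to 5 for Sofosbuvir, 1 to 3 for APAP, 0 to 0 for Sucrose and 10 to 10 for untreated liver. Outside liver it gave 3 to 3 for Cisplatin in kidney, 1 to 2 in ileum and skull and 2 to 2 in parotid gland, 1 to 2 for APAP in kidney, 0 to 2 for Aripiprazole in lung, 1 to 3 for Dox, 1 to 2 for Lurasidone and 0 to 2 for Olanzapine in skin, and 1 to 2 for Sofosbuvir in spleen. The lone library left in a group is assumed to vary like the other groups. The share of all genes called in these refits is not given beside the counts.

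Depth limits the low genes. Orm2 in liver and Fgb in the kidney controls rest on 3 counts or fewer in a group. With 2 libraries per group, 2 shared CMCTween libraries and sets that the labels do not give, the lack of a call does not show that a member did not change.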
